A study of Mus musculus with 6 samples.

Results

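The genes described here take up amino acids, make them and pass on their carbon units, together with the factors that answer when amino acids run short. They are 34 genes of 27376 gene symbols on the array, and 32 of them had a tested probe, of 14349 symbols with one. Slc15a2, which encodes a carrier of small peptides, was picked on its rise in these same arrays, so its values are a description and carry no test here. The other 33 were named by their pathway, with earlier results of these arrays known.

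The study asked what the loss of the microRNA miR-31 does to CD4 T cells that become regulatory T cells. Each array held the RNA from cells of 1 mouse at 6 weeks of age, with 3 miR-31fl/fl/CD4Cre mice (cKO) and 3 controls, all C57BL/6. Per the study's methods the controls were miR-31 fl/fl, so both groups carried the floxed allele and only the cKO mice carried Cre, which is driven by CD4 and therefore acts in all cells that pass through CD4 expression. Loss of miR-31 and the presence of Cre cannot be told apart in this design. Naive CD4+CD25-Foxp3gfp-CD62Lhi spleen cells were cultured for 4 days on plate-bound anti-CD3 at 5 μg/ml with soluble anti-CD28 at 2 μg/ml, TGF-β1 at 5 ng/ml and IL-2 at 40 ng/ml per the labels, which gives in vitro induced regulatory T cells (iTreg cells).

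Activated T cells import large neutral amino acids, glutamine and serine through membrane carriers, and they build serine and glycine from a glycolytic intermediate. The hydroxymethyl group of serine enters the folate cycle, which supplies carbon units for purines, thymidylate and methionine. When amino acids are scarce, uncharged tRNA activates a kinase that phosphorylates the translation factor eIF2, and translation of Atf4 increases. Atf4 with its partners binds amino acid response elements near the genes for carriers, synthetic enzymes, the regulators Atf5 and Trib3, and Chac1.

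Such elements hold letters of the form TGATGNAA, and the 250 bases before the start of each gene were searched for them on both strands to see which members carry one. RefSeq promoters on the GRCm38.p6 build were at hand for 29 of the members, and 6 of the 29 held a match, against 3.907% of all 27025 genes. The list was drawn partly from genes that answer amino acid shortage, so nothing is read from this difference. A gene counted with a match at any of its promoters, of which Slc7a7 had 5. No promoter was at hand for Slc7a5, Slc1a5, Slc38a1, Slc6a6 and Cth, so these genes were not searched. The stretches around the matches are shown because their genes are followed through the results, each 5′ to 3′ on the strand of its gene with the matching letters in capitals.
Asns, chr6:7693210-7693277, minus strand, 23 bases before the start: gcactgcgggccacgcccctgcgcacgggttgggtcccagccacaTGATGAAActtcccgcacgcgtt
Chac1, chr2:119351004-119351101, plus strand, 193 bases before the start, match on the other strand: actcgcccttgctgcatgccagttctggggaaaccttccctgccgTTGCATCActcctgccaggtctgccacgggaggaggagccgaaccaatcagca
Got1, chr19:43524655-43524752, minus strand, 102 bases before the start, match on the other strand: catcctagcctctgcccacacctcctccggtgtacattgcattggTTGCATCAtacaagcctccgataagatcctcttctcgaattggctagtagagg
Pycr1, chr11:120643799-120643896, minus strand, 103 bases before the start: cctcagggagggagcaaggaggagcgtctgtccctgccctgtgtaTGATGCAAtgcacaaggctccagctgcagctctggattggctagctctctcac
Slc7a7, chr14:54418033-54418130, minus strand, 141 bases before the start: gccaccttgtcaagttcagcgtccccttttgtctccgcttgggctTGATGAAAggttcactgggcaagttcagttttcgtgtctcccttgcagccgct
Slc7a11, chr3:50443627-50443724, minus strand, 66 bases before the start: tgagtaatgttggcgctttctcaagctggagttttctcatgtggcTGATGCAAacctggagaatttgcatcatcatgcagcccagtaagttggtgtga

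The Slc7a11 stretch holds a second match on the other strand 47 bases before the start, and Slc7a7 has another match before a second start. The E-box CACGTG was also searched. It lay before the start of Aldh18a1 and Cbs, 2 of the 29, against 6.86% of all genes. The Aldh18a1 stretch is given because that gene recurs among the results.
Aldh18a1, chr19:40588472-40588567, minus strand, 59 bases before the start: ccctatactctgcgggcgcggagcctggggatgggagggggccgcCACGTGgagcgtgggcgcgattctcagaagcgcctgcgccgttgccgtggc

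A match is a string of letters, and binding was not measured. Levels below are log2 signals minus the 75th percentile of the array, so that a level of 0 equals the signal that 75% of the spots of that array did not exceed. Fold changes are cKO over control on that log2 scale, from limma with 3 arrays a group, and a gene is given by its probe with the highest mean.

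The 6 arrays were alike in depth of signal, with 75th percentiles of 987 to 1148 and 49.3% to 57.7% of spots well above background. All 6 T cell markers were tested, with a summed level (the log2 of the signals of the list added up) of 7.62 to 8.05 on the cKO arrays and 7.49 to 7.59 on the control arrays. Cd3d (0.38), Cd3g (0.74), Cd4 (0.66) and Cd28 (0.43) were higher on all cKO arrays. Cd3e (-0.28) was lower on all of them, and Cd5 (0.11) overlapped between the groups. All 4 regulatory T cell markers were tested too, at 4.60 to 5.56 in cKO and 5.47 to 5.71 in control. Foxp3, the defining factor of these cells, was lower on all cKO arrays (-0.62, unadjusted p 0.032, adjusted p 0.192 in limma) and Ctla4, an inhibitory receptor, higher on all of them (0.94, unadjusted p 0.0075, adjusted p 0.135 in limma). Il2ra (-0.56) and Ikzf2 (0.51) overlapped between the groups. The Foxp3 value was -0.39 without cKO array 3 and -0.50 with the slide as a term (unadjusted p 0.195 in limma). By flow cytometry the study reported more iTreg cells in cKO cultures, which is a share of cells and not an RNA level. Both CD8 markers were tested, with sums of 1.95 to 2.12 in cKO and 2.14 to 2.49 in control. Of the B cell, myeloid, erythroid and epithelial markers, 1 of 4, 1 of 4, 1 of 3 and 3 of 4 were tested, and Krt8 was well above background on no array. The epithelial sum was 0.37 to 0.96 in cKO against -0.31 to -0.15 in control, the erythroid sum -1.10 to 0.06 against -2.42 to -1.42, the B cell sum -0.90 to 0.33 against -1.43 to -0.70, and the myeloid sum -2.92 to -2.82 against -3.39 to -1.81. The erythroid sum followed Hbb-b1 (2.10 higher in cKO), while Hba-a1, untested and well above background on 2 control arrays alone, was lower on every cKO array by a mean difference of -1.88. The part of these markers in the results was not tested, and fewer cells of a type cannot be told apart from less RNA per cell. The slide of the 3 cKO arrays also held control array 1, and the remaining controls shared a second slide, so within-slide values compare the cKO arrays with control array 1 alone. No probe carried the name of miR-31, so its loss was not checked here.

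Many members had their lowest value on cKO array 3. No member passed an adjusted p of 0.05, and the smallest adjusted p in limma among the members other than Slc15a2 was 0.161. At an unadjusted p under 0.05, 4 of these 31 members passed, Atf5 with a higher level and Bcat1, Aldh18a1 and Mthfd1 with a lower level in cKO. Over the tested probe of each gene, 12.0% of genes passed as higher and 11.5% as lower at that threshold, and 0.279% passed after adjustment. For the 22281 tested probes counted singly those shares were 11.5%, 11.4% and 0.242%. The members' counts of 1 higher and 3 lower of 31 are read as no result beside these shares.

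The median fold change of the 32 members was -0.11, and -0.12 without Slc15a2, beside -0.04 for all tested probes. Of the 32 members, 14 had a fold change above 0 and 18 below. Slc15a2 aside, whose separation came with its choice, the lowest cKO value exceeded the highest control value in 4 of 31 members (Glud1, Got1, Atf5 and Trib3), and in 5 the groups were separate the other way (Slc38a1, Aldh18a1, Shmt1, Mthfd1 and Bcat1). The same held for 16.6% of all genes upward and 21.4% downward, and for 15.9% and 20.7% of all tested probes. With 3 arrays against 3 an exact permutation test of a single value cannot go below p = 0.1.

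cKO array 3 gave the lowest of the 6 values for 20 of the 32 members, or 62.5%, against 36.1% of all genes. It lay below both other cKO arrays for 24 of the 32, while the same was so for 43.4% of all genes. cKO arrays 1 and 2 held the lowest value of no member, against 10.8% and 12.8% of all genes. The highest value was on cKO array 2 for 17 members, against 14.1% of all genes. The SD was larger among the cKO arrays than among the control arrays for 26 of the 32 members, against 72.9% of all genes. The median SD of the members was 0.42 in cKO and 0.11 in control. For all genes the medians were 0.23 and 0.11. Without cKO array 3 the median fold change of the members was 0.13 and that of all tested probes -0.03, and 11 members were below 0 in place of 18. What set cKO array 3 apart was not tested.

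**Figure D1:**
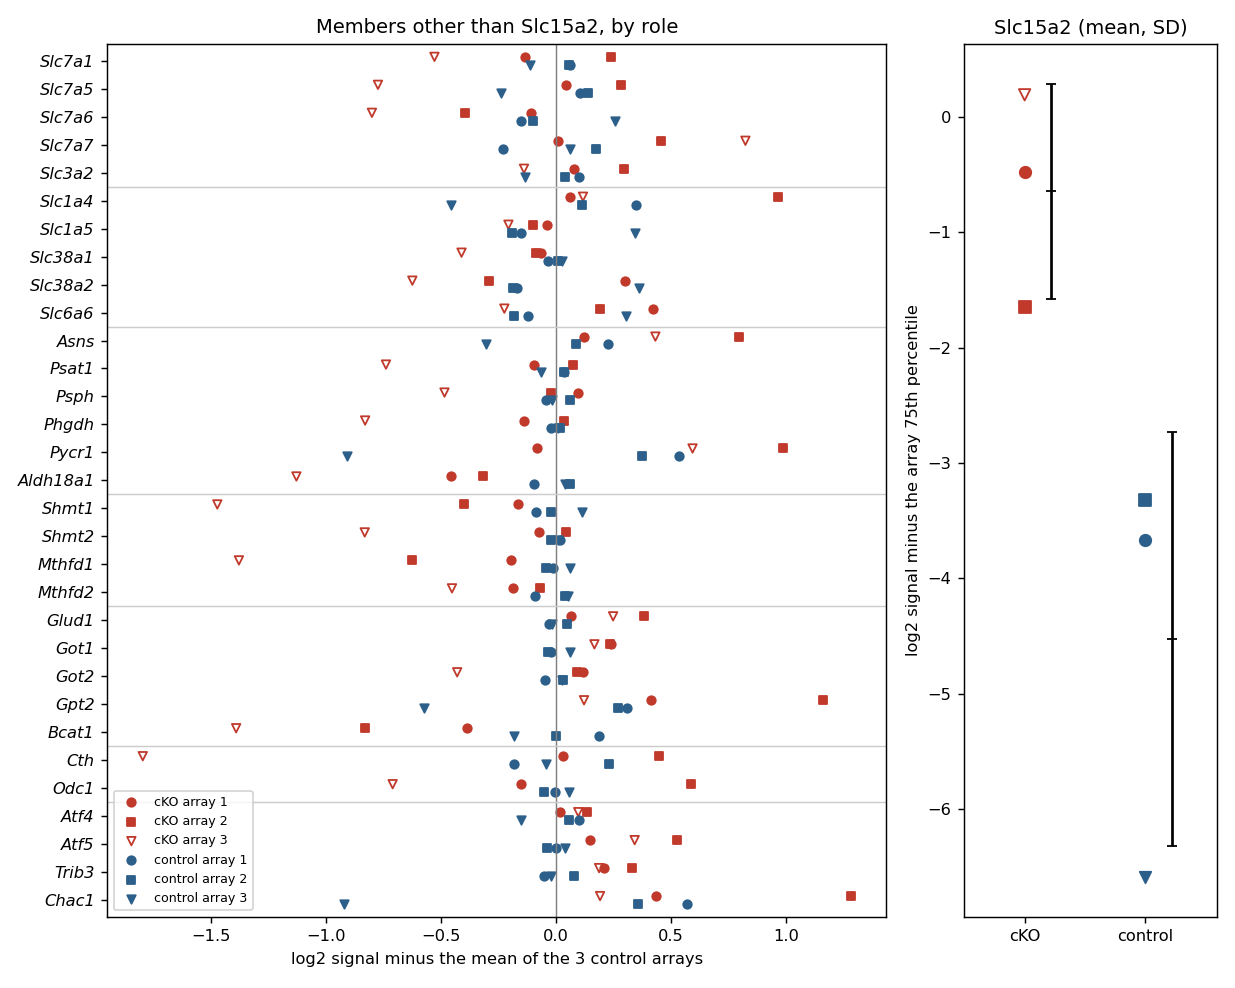
Left, the log2 signal of the 31 tested members other than Slc15a2 on each array, as the difference from the mean of the 3 control arrays, with roles divided by grey lines. Right, the log2 level of Slc15a2 with the mean and SD of each group. The open triangles of cKO array 3 are the lowest of the 6 arrays for 20 members.

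The plot of levels by array shows the 3 control arrays close to 0 for most enzymes and the cKO arrays spread, mostly through the third.

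Slc15a2 takes up di- and tripeptides together with protons. Its levels were -0.47, -1.65 and 0.19 on the cKO arrays and -3.67, -3.32 and -6.59 on the control arrays. The cKO values lay apart from and above all control values, with cKO array 3 the highest of all, unlike most other members. The fold change was 3.88 with an SE of 0.94, which is 14.8-fold with dim control spots at their recorded signal. Only 1 of 3 control arrays had this probe well above background, against all 3 cKO arrays. Within the slide shared by both genotypes the value was 3.02, and leaving out single arrays gave 2.85 to 4.49, the lowest without control array 3. Weights for the arrays gave 2.45 and another background correction 2.52. The probe lies at chr16:36750603-36750662 in mm9. A second probe, for a cDNA of the same symbol at chr16:36772528-36772587, was well above background on no array, so the pattern rests on 1 probe.

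The heterodimeric and cationic carriers had no member past the threshold. Slc3a2, the heavy chain that brings its light chains to the surface, had levels of 4.45, 4.67 and 4.24 in cKO and 4.47, 4.41 and 4.24 in control, and the groups overlapped. Its fold change of 0.08 turned to -0.02 with the slide as a term and to -0.16 with another background correction, and its second probe gave 0.02. Slc7a5, the light chain that with Slc3a2 imports leucine and other large neutral amino acids, had levels of 1.09, 1.33 and 0.27 in cKO and 1.15, 1.19 and 0.81 in control. Only cKO array 3 fell outside the control range on the low side, and the fold change of -0.15 (SE 0.29) was 0.16 without that array.

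Slc7a1 carries arginine and other cationic amino acids. Its fold change was -0.14 (SE 0.20), and 0.05 without cKO array 3, while a second probe was level between the groups. Slc7a6 and Slc7a7 are light chains that exchange cationic for neutral amino acids, and they pointed opposite ways. Slc7a6 measured 0.03, -0.26 and -0.67 in cKO and -0.02, 0.04 and 0.39 in control. Slc7a7, with the element shown above, measured -2.24, -1.79 and -1.42 in cKO and -2.47, -2.07 and -2.18 in control. Slc7a6 had cKO array 3 lowest and Slc7a7 had it highest, and both overlapped between groups, with fold changes of -0.44 (SE 0.21) and 0.43 (SE 0.23). The cystine carrier Slc7a11 was well above background on 1 cKO array and no control array, with 4 probes on the array, and was not tested. That array was cKO array 3, at -4.43 against -6.99 to -6.06 on the other 5.

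Among the neutral carriers Slc38a1, a sodium-coupled glutamine carrier, had all cKO arrays below the controls. Its levels were 4.43, 4.41 and 4.09 in cKO and 4.46, 4.51 and 4.53 in control. The nearest cKO and control arrays were almost level, and the fold change of -0.19 (SE 0.13) did not pass, with an unadjusted p of 0.184 in limma. All 5 of its probes were tested and all were below 0, from -0.74 to -0.18. The one at -0.74, at chr15:96402675-96402734 in mm9, had an unadjusted p of 0.012 and an adjusted p of 0.151 in limma. Slc38a2, the related carrier that is induced by amino acid shortage, had probes on both sides of 0. The 2 probes of its RefSeq transcript gave -0.21 and -0.10, and 2 probes of a cDNA gave 0.23 and 0.21.

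Slc1a5, which exchanges glutamine for other neutral amino acids, measured 3.58, 3.53 and 3.42 in cKO and 3.47, 3.43 and 3.97 in control, and its fold change of -0.12 (SE 0.17) was 0.05 without control array 3. Slc1a4, a carrier of alanine, serine and cysteine, had a fold change of 0.38 (SE 0.32), which was 0.04 within the shared slide. Its second probe gave 0.24. Slc6a6, the taurine carrier, had a fold change of 0.13 (SE 0.21) and of -0.04 at its second probe. None of these 3 separated the groups.

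Serine synthesis has 3 steps, and all 3 enzymes had the same shape across the arrays. Phgdh, which opens the pathway, measured 6.01, 6.19 and 5.32 in cKO and 6.13, 6.17 and 6.16 in control. Psat1, the aminotransferase of the second step, measured 3.29, 3.46 and 2.65 in cKO and 3.42, 3.42 and 3.32 in control. Psph, the phosphatase of the last step, measured 2.88, 2.77 and 2.30 in cKO and 2.74, 2.85 and 2.77 in control. In each, cKO arrays 1 and 2 lay near the controls and cKO array 3 lay below all others. The fold changes were -0.31 (SE 0.23) for Phgdh, -0.26 (SE 0.22) for Psat1 and -0.14 (SE 0.17) for Psph, and without cKO array 3 they were -0.05, -0.01 and 0.04.

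Of the members with several tested probes, Phgdh was the one whose probes disagreed most. A probe that overlaps the first, at chr3:98117094-98117124 in mm9, measured 4.91, 5.14 and 4.18 in cKO and 5.76, 5.87 and 5.84 in control. Here all cKO arrays lay clearly below the controls, with a fold change of -1.08 (SE 0.25), an unadjusted p of 0.00466 and an adjusted p of 0.122 in limma. It was -0.80 without cKO array 3 and -1.02 within the shared slide. The third probe gave -0.45 with overlapping groups. The level of Phgdh thus depended on which of neighbouring probes was read.

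Asns, which makes asparagine from aspartate and glutamine and carries the response element shown above, measured 4.05, 4.72 and 4.36 in cKO and 4.15, 4.01 and 3.62 in control. cKO array 3 was not low here, and only cKO array 1 fell among the controls. The fold change was 0.45 (SE 0.22) with an unadjusted p of 0.087 in limma, and 0.23 within the shared slide. Pycr1, the last enzyme of proline synthesis in mitochondria, had a fold change of 0.50 (SE 0.45), which was -0.04 within the shared slide. Its level of -4.41 on control array 3 stood below -3.58 to -2.51 on the other arrays.

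Aldh18a1, which starts proline synthesis from glutamate, was among the members past the unadjusted threshold. It measured 0.67, 0.81 and -0.004 in cKO and 1.03, 1.18 and 1.16 in control, at chr19:40624730-40624767 in mm9. All cKO arrays lay below all controls, with cKO array 3 the lowest. The fold change was -0.64 (SE 0.22), with an unadjusted p of 0.028 and an adjusted p of 0.186 in limma. It was -0.39 without cKO array 3 and -0.54 within the shared slide, where the unadjusted p was 0.169. Without control array 2 or 3 the unadjusted p was 0.074 and 0.071.

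**Figure D2:**
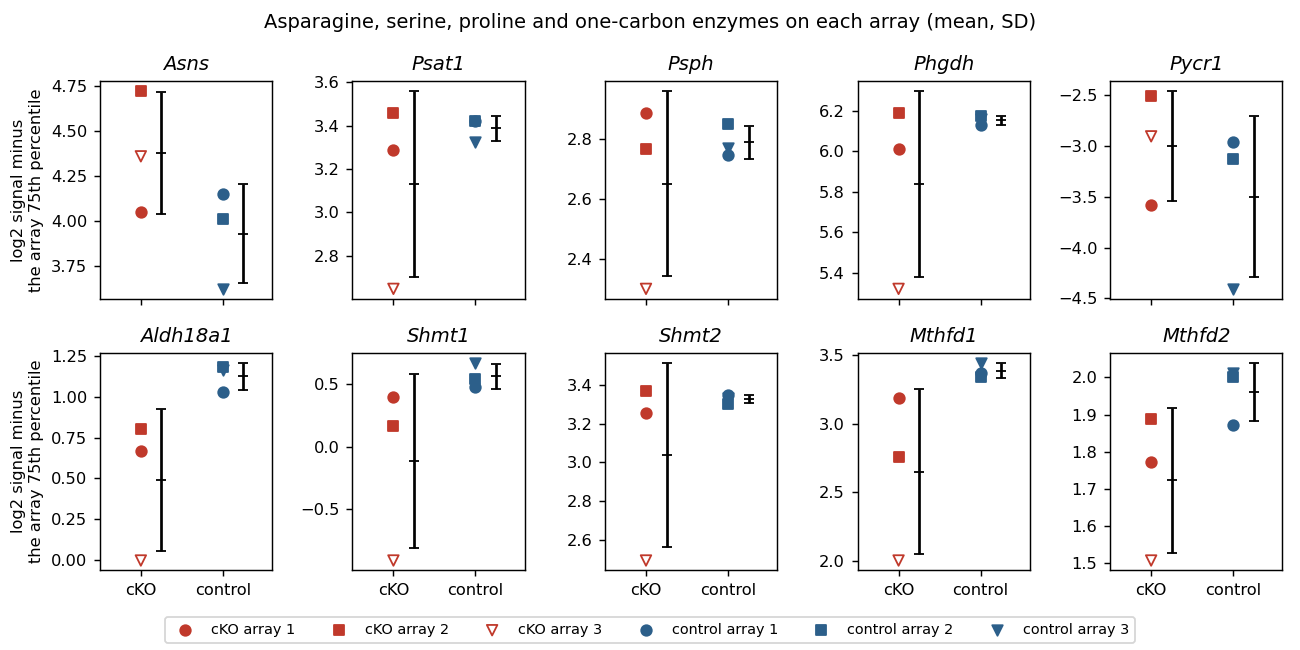
Log2 levels of the 6 asparagine, serine and proline enzymes and the 4 one-carbon enzymes on each array, each panel with its own scale, with the mean and SD of each group of 3 arrays. cKO array 3, the open triangle, is the lowest of the 6 in 8 of 10 panels, and Asns and Pycr1 are the exceptions.

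All 4 one-carbon enzymes had fold changes below 0, with a median of -0.48, and 1 of them passed the unadjusted threshold. Mthfd1, the cytosolic enzyme that joins formate to folate and interconverts the carbon units, measured 3.19, 2.76 and 2.00 in cKO and 3.37, 3.34 and 3.45 in control. The cKO arrays were all lower and spread widely, with an SD of 0.60, while the controls had an SD of 0.05. Its fold change was -0.73 (SE 0.29), with an unadjusted p of 0.045 and an adjusted p of 0.211 in limma. A second probe of Mthfd1, at chr12:77404834-77404893 in mm9 as against chr12:77418622-77418681 for the first, gave -0.71. The first gave -0.41 without cKO array 3 and -0.72 within the shared slide, where the unadjusted p was 0.166. The unadjusted p was also 0.0585 with median scaling, 0.0556 with no filter on dim probes, 0.0587 with another background correction, 0.0548 with the replicate block and 0.102 with the methods' t-test.

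Shmt1, the cytosolic enzyme that moves a carbon unit from serine to folate, measured 0.40, 0.16 and -0.91 in cKO and 0.47, 0.54 and 0.67 in control. The groups did not overlap, and cKO array 3 carried most of the gap. The fold change was -0.68 (SE 0.34) with an unadjusted p of 0.090 in limma, and -0.72 at a second probe. Without cKO array 3 it was -0.28. Shmt2, the mitochondrial form, measured 3.25, 3.37 and 2.49 in cKO and 3.34, 3.30 and 3.33 in control, so that cKO arrays 1 and 2 were at the level of the controls. Its fold change was -0.29 (SE 0.24), and -0.02 without cKO array 3. Mthfd2, the mitochondrial dehydrogenase that is high in dividing cells, measured 1.77, 1.89 and 1.51 in cKO and 1.87, 2.00 and 2.01 in control, a fold change of -0.24 (SE 0.13). All 4 stayed below 0 without cKO array 3, with a median of -0.21, and within the shared slide, with a median of -0.45.

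Among the transaminases Bcat1, which starts the breakdown of leucine, isoleucine and valine in the cytosol, had the lowest fold change of all 32 tested members. It measured 2.25, 1.81 and 1.25 in cKO and 2.83, 2.64 and 2.46 in control, at chr6:144947688-144947747 in mm9. All 3 cKO arrays lay below all controls, in this case not through cKO array 3 alone. The fold change was -0.87 (SE 0.26), with an unadjusted p of 0.015 and an adjusted p of 0.161 in limma. It was -1.06 within the shared slide and -0.61 without cKO array 3, and the unadjusted p stayed under 0.05 in all 17 alternatives tried. The adjusted p of these alternatives ran from 0.040, with weights for the arrays, to 0.645. With those weights 2205 of the 22281 tested probes had an adjusted p under 0.05. A second Bcat1 probe gave -0.69 with overlapping groups and an unadjusted p of 0.093 in limma.

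Got1, the cytosolic aspartate aminotransferase with a response element, measured 3.43, 3.43 and 3.36 in cKO and 3.18, 3.16 and 3.26 in control. Glud1, which releases ammonia from glutamate in mitochondria, measured 5.24, 5.56 and 5.42 in cKO and 5.15, 5.22 and 5.16 in control. Both had all cKO arrays above all controls by small steps, with fold changes of 0.21 (SE 0.09) and 0.23 (SE 0.12), neither past the threshold. Both turned just below 0 with another background correction, at -0.01 and -0.05. Got2, the mitochondrial partner of Got1, measured 3.93, 3.91 and 3.38 in cKO and 3.76, 3.84 and 3.84 in control. Its fold change was -0.08 (SE 0.17), with cKO array 3 alone below the controls. Gpt2, the mitochondrial alanine aminotransferase, had a fold change of 0.56 (SE 0.35), which was 0.26 within the shared slide, with cKO array 2 highest at -0.66 and control array 3 lowest at -2.40.

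Cth, which releases cysteine from cystathionine, had the widest spread between cKO arrays of the tested enzymes. It measured -0.58, -0.16 and -2.41 in cKO and -0.79, -0.38 and -0.65 in control. Its sign turned with 1 array, from -0.44 (SE 0.57) to 0.24 without cKO array 3. Cbs, the step before it, was well above background on 1 cKO array alone and was not tested. Odc1, the first enzyme of polyamine synthesis, measured 6.02, 6.76 and 5.46 in cKO and 6.17, 6.12 and 6.23 in control. The 3 controls were nearly level, and the cKO arrays lay on both sides of them, for a fold change of -0.09 (SE 0.32) and an SD of 0.65 in cKO against 0.06 in control.

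The 4 amino acid response genes are the regulators Atf4, Atf5 and Trib3 and the enzyme Chac1. All had fold changes above 0, with a median of 0.29, and 1 passed the unadjusted threshold. Atf4 itself measured 2.26, 2.38 and 2.34 in cKO and 2.34, 2.30 and 2.09 in control, with overlapping groups. Its fold change of 0.08 (SE 0.11) turned to -0.02 with the slide as a term and to -0.10 with another background correction. As background, Atf4 is set largely by translation, and its protein was not measured. Atf5, a related factor, measured 1.03, 1.41 and 1.23 in cKO and 0.88, 0.85 and 0.92 in control, at chr7:52067718-52067777 in mm9. All cKO arrays were above all controls, cKO array 3 included. The fold change was 0.34 (SE 0.13), with an unadjusted p of 0.036 and an adjusted p of 0.199 in limma, and it was 0.34 within the shared slide with an unadjusted p of 0.157. Leaving out any array but cKO array 1 took the unadjusted p to between 0.058 and 0.108. Another background correction lowered the value to 0.16 (unadjusted p 0.365), and the unadjusted p was 0.0535 with median scaling, 0.0726 with no filter on dim probes and 0.0764 with the replicate block.

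Trib3, a pseudokinase that restrains Atf4, measured 2.60, 2.72 and 2.58 in cKO and 2.34, 2.47 and 2.37 in control. The groups did not overlap, and the fold change was 0.24 (SE 0.10) with an unadjusted p of 0.051 in limma. It was 0.049 with another background correction (unadjusted p 0.845), and a second probe gave 0.19 with overlapping groups. Chac1, which degrades glutathione, measured 0.41, 1.26 and 0.17 in cKO and 0.54, 0.33 and -0.94 in control. Its fold change of 0.63 (SE 0.47) rested on cKO array 2 and control array 3, and it was 0.07 within the shared slide.

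The 5 tested members with a response element before their start (Asns, Chac1, Got1, Pycr1 and Slc7a7) all had fold changes above 0, from 0.21 to 0.63 with a median of 0.45, though none passed the unadjusted threshold. Of the 22 tested members with no match in the 250 bases searched, 8 were above 0, with a median of -0.14. Atf5 and Trib3 were among these 22. The rest of each gene was not searched, so no match does not mean that a gene lacks the element. Over all 222 tested genes with a match the median was -0.02 and 48.2% were above 0, beside -0.05 and 44.9% for all 8967 tested genes with a promoter. The sign of Got1 with another background correction and that of Pycr1 within the shared slide were below 0. Chac1 was at 0.07 within the shared slide. In none of these 5 was cKO array 3 the lowest of the 6 arrays, and control array 3 was the lowest for Asns, Chac1 and Pycr1.

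**Figure D3:**
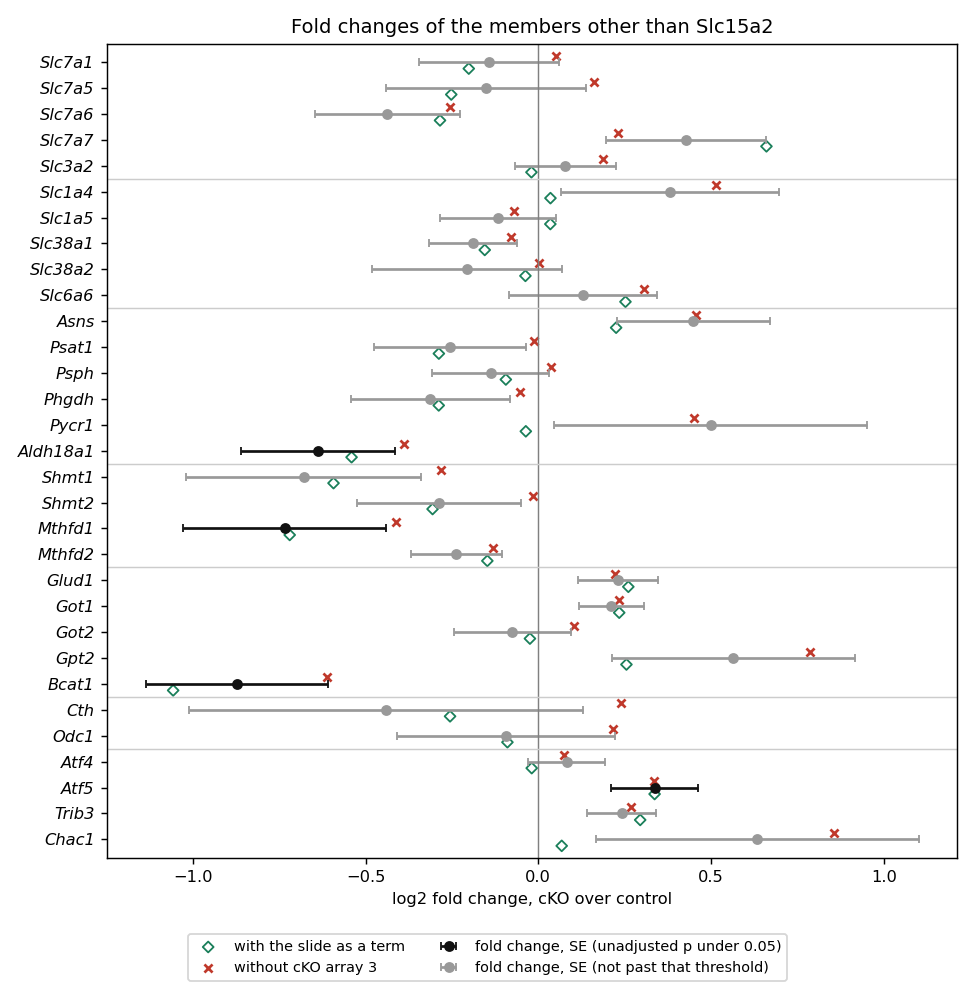
Log2 fold change, cKO over control, of the 31 tested members other than Slc15a2 with the SE of the fit, black for an unadjusted p under 0.05. Diamonds give the value with the slide as a term and crosses the value without cKO array 3, which moves most of the amino acid enzymes toward or past 0 and leaves Bcat1 at -0.61.

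The plot of fold changes sets each member beside its within-slide value and its value without cKO array 3. Atf4, Atf5, Trib3, Got1 and Glud1 hardly moved without that array, whereas Cth, Shmt1 and Mthfd1 moved the most.

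Other genes of these pathways were read from a list of general knowledge. Of 128 listed genes found on the array, 108 were tested, and at an unadjusted p under 0.05 19 were higher and 19 lower, against 12.0% and 11.5% of all genes, or none at an adjusted p of 0.05, where the smallest was 0.118 in limma. In 26 all cKO arrays lay above the controls and in 35 below, against 16.6% and 21.4% of all genes, and the median fold change was -0.10. The 4 highest genes past the unadjusted threshold with separate groups were Vldlr at 2.28, Jdp2 at 1.82, Aldh1l1 at 1.41 and Slc1a2 at 1.35. Vldlr is a lipoprotein receptor that Atf4 induces, Jdp2 a bZIP factor, Aldh1l1 an enzyme that removes carbon units from folate, and Slc1a2 a glutamate carrier, well above background on 1 of 3 control arrays. The 4 lowest were Gcsh at -1.34, of the glycine cleavage system, Mtap at -0.99, which salvages methionine, the spermidine synthase Srm at -0.98, and Mtr at -0.91, which remakes methionine from homocysteine. Mtap is on the chromosome of miR-31, its probe at chr4:88826213-88826272 in mm9 and miR-31-5p at chr4:88910614-88910635 in GRCm38.p6. The builds differ, so no distance is given. Whether the deletion of the miR-31 stretch itself bears on Mtap was not tested. With the slide as a term the 4 highest were at 1.44, 1.40, 1.24 and 0.80 in the same order and none passed, with an unadjusted p of 0.068 to 0.218, and of the 4 lowest Mtap (0.046) and Mtr (0.045) passed while Gcsh (0.073) and Srm (0.127) did not.

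The folate, one-carbon, methionine and glycine genes of that list had 4 of 21 higher and 9 lower, against 12.0% and 11.5% of all genes. Their median was -0.50. In 12 all cKO arrays lay below the controls and in 3 above, against 21.4% and 16.6% of all genes. Among the lower genes were Gcsh, Mtr, Tyms, Gart, Mat2a and Mtrr, named after their values were seen. Tyms makes thymidylate, Gart works in purine synthesis and Mat2a makes the methyl donor S-adenosylmethionine. Gcsh measured 0.15, -0.23 and -1.13 in cKO and 0.72, 0.85 and 1.24 in control, and Mtr measured -1.54, -1.94 and -2.30 in cKO and -1.12 to -0.93 in control. Both had each cKO array below each control, with the lowest value again on cKO array 3. That array was the lowest for 14 of the 21, against 36.1% of all genes. The median of the 21 was -0.32 without cKO array 3 and -0.45 within the shared slide, where 14 were below 0.

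The stress genes linked to Atf4 had 5 of 18 higher and 3 lower, against 12.0% and 11.5% of all genes, with a median of 0.36, which was 0.24 within the shared slide and 0.18 without cKO array 3. The 5 higher genes were Vldlr, Jdp2, Sesn2, Ddit4 and Eif4ebp1 and the 3 lower Eif2ak2, Slc30a1 and Cebpb, named after their values were seen. Ddit4, Sesn2 and Eif4ebp1 encode restraints on mTORC1 signalling and cap-dependent translation. The 20 cytosolic aminoacyl-tRNA synthetases, which charge tRNAs with amino acids, had none past the unadjusted threshold in either direction. Their median was -0.18, and 0.01 without cKO array 3. Of the other amino acid transporters 2 of 14 were higher and none lower, of the polyamine genes 2 of 10 were higher and 2 lower, of the cysteine and glutathione genes 4 of 8 were higher and 2 lower, and of the remaining enzymes 2 of 17 were higher and 3 lower. Counts over groups this small are given beside those same shares of all genes with nothing read from them.

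**Figure D4:**
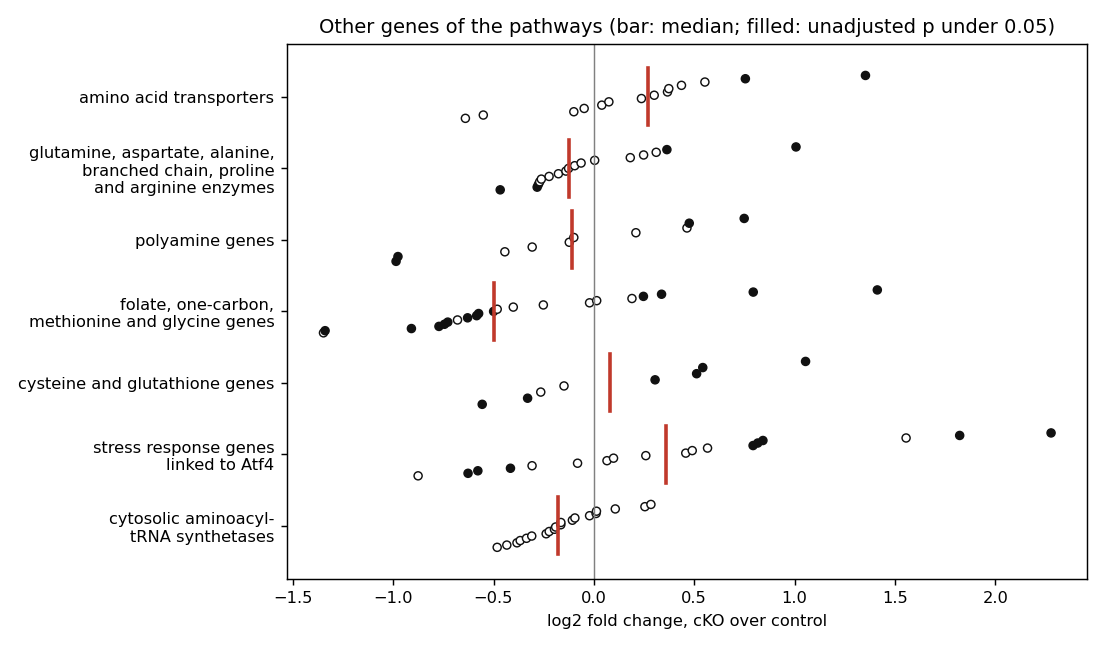
Log2 fold change, cKO over control, of the 108 tested genes of the pathway list in 7 groups, filled for an unadjusted p under 0.05, with a bar at the median of each group. The folate group centres at -0.50, the synthetases at -0.18 and the stress genes at 0.36.

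The plot by group shows the folate genes mostly to the left of 0, as the 4 one-carbon members were. The stress genes lay mostly to the right, as the 4 amino acid response genes did. No group was tested as a set.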

How the data were processed

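RNA from 6 iTreg cultures was labelled with Cy3 from 0.5 μg and hybridized to one-colour Agilent arrays. The authors deposited linear spot intensities, background-subtracted by Agilent Feature Extraction (9.1 per the labels, 10.7.3.1 per the file headers, annotation on mm9), and a table of log2 values with column medians of 6.15, whose normalization is not given in the sources used here. All 6 columns were assigned. Outlier spots (123 to 140 an array) were dropped, log2 intensities were reduced by each array's 75th percentile, and spots of a probe were averaged. Of 41174 probes, 22281 were well above background on at least 3 of 6 arrays and entered the genotype fit of limma 3.58.1 (R 4.3.3), with p-values adjusted across them by Benjamini-Hochberg. The number of arrays limits the precision. Simulated arrays of this number had independent probes, each with the same SD in both groups, unlike the measured arrays with their larger SD in cKO. In them 90% of probes moved by 1 on the log2 scale had an unadjusted p under 0.05 and 43% an adjusted one. These shares need not hold for the measured arrays.

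The named genes were all 34 members and, of the pathway list, the 4 tested genes furthest in each direction with an unadjusted p under 0.05 and separate groups. Further genes of the list's folate and stress groups were named outside this rule, after their values were seen. Members and lists were chosen with earlier results of these data known. The alternatives were normexp background correction (offset 50), quantile normalization, median scaling, the authors' log2 table, other filters, the methods' t-test, array weights, the slide as a term, a replicate block, the mean over probes, and each array left out. Same-numbered arrays did not deviate together (correlations of -0.14, 0.01 and -0.19). Slc38a6 and Amt were not analysed here.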

Additional observations from a re-analysis of the deposited data

How the results depend on the processing

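No member reached an adjusted p of 0.05 in any alternative other than weights for the arrays, which gave 2 (Bcat1 and Atf5). With those weights 2205 of the 22281 tested probes passed that threshold, against 54 without them, so nothing is read from the 2. The count of 2 higher and 3 lower members at an unadjusted p under 0.05 moved to 7 higher with array weights, 1 higher with median scaling or no filter, 5 higher with quantile normalization or the authors' log2 table, 4 higher and 1 lower with the methods' t-test, 1 lower with normexp, and 0 higher and 1 lower with the slide as a term. These counts, and those with an array left out, include Slc15a2, chosen for its rise, and without it 1 higher and 3 lower members became 0 to 6 higher and 1 to 5 lower over the 17 alternatives. Leaving out each array in turn gave 1 to 5 higher and 1 to 5 lower, and a median fold change of -0.161 to 0.132, above 0 only without cKO array 3. The 19 higher and 19 lower genes of the pathway list moved to 29 higher with array weights, 9 and 4 with normexp, 1 and 4 with the slide as a term, 11 lower with the methods' t-test, and 11 to 22 higher and 6 to 22 lower with an array left out. The median of all tested probes was 0.11 with normexp against -0.04. Of all 22281 tested probes, 5120 passed the unadjusted threshold in the main fit, 7566 with array weights and 1659 with normexp. The number was 5248 with quantile normalization, 5228 with the authors' log2 values, 4509 with median scaling and 4018 with the methods' t-test. With no filter 4705 of 41174 passed. With an array left out 2865 to 6465 passed, and the number also fell with the slide as a term. Nothing is therefore read from the swings among members and pathway genes. The replicate block gave 2 higher and 2 lower members, 13 higher and 9 lower pathway genes and 3627 of all tested probes. Pairing was not borne out by the correlations.

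Signs turned with array weights for Slc7a1 (0.064), Slc7a5 (0.062), Slc1a5 (0.036), Got2 (0.0499), Cth (0.0896) and Odc1 (0.37), with normexp for Slc3a2 (-0.16), Slc6a6 (-0.033), Glud1 (-0.053), Got1 (-0.011), Cth (0.17) and Atf4 (-0.099), with the slide as a term for Slc3a2 (-0.0199), Slc1a5 (0.035), Pycr1 (-0.036) and Atf4 (-0.019), and with the mean over probes for Slc38a2 (0.034) and Odc1 (0.0045). With an array left out, the fold changes ran from -0.333 to 0.0508 for Slc7a1, -0.367 to 0.161 for Slc7a5, -0.031 to 0.187 for Slc3a2, -0.212 to 0.0544 for Slc1a5, -0.46 to 0.00191 for Slc38a2, -0.0175 to 0.307 for Slc6a6, -0.254 to 0.0366 for Psph, -0.17 to 0.103 for Got2, -0.884 to 0.238 for Cth and -0.433 to 0.215 for Odc1. The cause was not tested.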
